A study of Canis lupus familiaris with 23 samples.

Results

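Among the genes measured in canine oral tumors, 39 had a lower level in every acanthomatous ameloblastoma than in any oral squamous cell carcinoma, out of 15716 genes with enough counts to test and 30951 genes in the table. They were chosen on measured values. Levels are CPM, a gene's count as a share of its library, where library sizes were corrected for composition with edgeR's TMM factors. A gene entered when its mean in carcinoma was at least 10 CPM and its highest ameloblastoma library lay below its lowest carcinoma library. Genes for which all tumors lay on one side of all healthy gingiva, genes with at most 3 counts in every gingiva library, the 100 most abundant genes of gingiva and 2 listed identifiers were then left out. Of 53 genes with separated tumor ranges (0.337% of those tested), 13 fell short of the CPM minimum, 1 was a listed identifier and the other exclusions removed 0, which leaves the 39.

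The libraries came from 5 canine acanthomatous ameloblastomas (CAA; 3 of the maxilla, 2 of the mandible), 11 canine oral squamous cell carcinomas (COSCC; 7 of the maxilla, 4 of the mandible) and 7 samples of healthy gingiva, for 6 of which the jaw is given as undetermined. All are whole tissue from dogs of various breeds, with no age or treatment in the labels, and each also carries a code, FS (12 libraries) or MC (11 libraries), that the labels do not explain. Nothing states that libraries of a group came from separate animals, although each has its own library name, so the spread between them may in part be technical.

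CAA is an odontogenic tumor of the jaw that invades bone locally and is not known to metastasize. COSCC is a malignant tumor of the keratinocytes that line the mouth, which invades bone and can spread to lymph nodes. Gingiva is a keratinizing stratified epithelium on connective tissue with vessels and resident immune cells. In whole tissue, fewer cells of a type and less RNA per cell cannot be told apart. The table lists Ensembl dog gene identifiers without symbols, and 0 of them matched the RefSeq gene table (assembly UU_Cfam_GSD_1.0) used for names. The 39 genes therefore have no names, functions or positions here, and the labelled tissues could not be checked against cell type markers.

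Total counts lay between 15120326 and 16813220 per library, and 38 of the 39 genes had at least 10 counts in every library. Of 86 pairs of libraries within a group, the most alike still differed far beyond counting noise (mean chi-square 50.9 per gene), so none was treated as a duplicate. A few libraries set the borders of the gene set. CAA replicate 4 was the highest CAA library for 21 of the 39 genes, and for 31.7% of all 9879 genes with a mean of at least 10 CPM in COSCC. COSCC replicate 6 was the lowest COSCC library for 15 of the 39, against 11.3% of those 9879 genes. The library name of COSCC replicate 6, unlike the others, carries an additional number, and it was treated like any other sample. Without CAA replicate 4 the same rule gave 205 genes, 37 of the 39 among them. Without COSCC replicate 3, 5 or 6 it gave 60, 86 or 64 genes. Scaling bore on membership too: with library totals in place of TMM the rule gave 32 genes, 17 of the 39 among them.

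The 39 genes ran from low to abundant, with mean COSCC levels of 10.2 to 623 CPM and a median of 39.4. Their median mean level was 14.4 CPM in CAA and 29.2 CPM in gingiva. The margin by which they met the rule was mostly narrow. The ratio of the lowest COSCC library to the highest CAA library had a median of 1.07, and it was under 1.1 for 26 genes. The fitted log2 difference of CAA from COSCC ranged from -4.56 to -0.44 with a median of -1.15, where all tested genes had a median of -0.07. It was at least 2-fold for 22 genes and at least 4-fold for 10. With edgeR's quasi-likelihood test, 38 of the 39 had an adjusted p under 0.05 and were lower in CAA, against 4.63% of all genes tested. Of the 38, 20 stayed past the threshold in each of 23 fits that left out 1 library. The share of all genes called lower in those fits was 0.489% to 7.9%. Since this contrast chose the genes, these values only describe them.

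**Figure D1:**
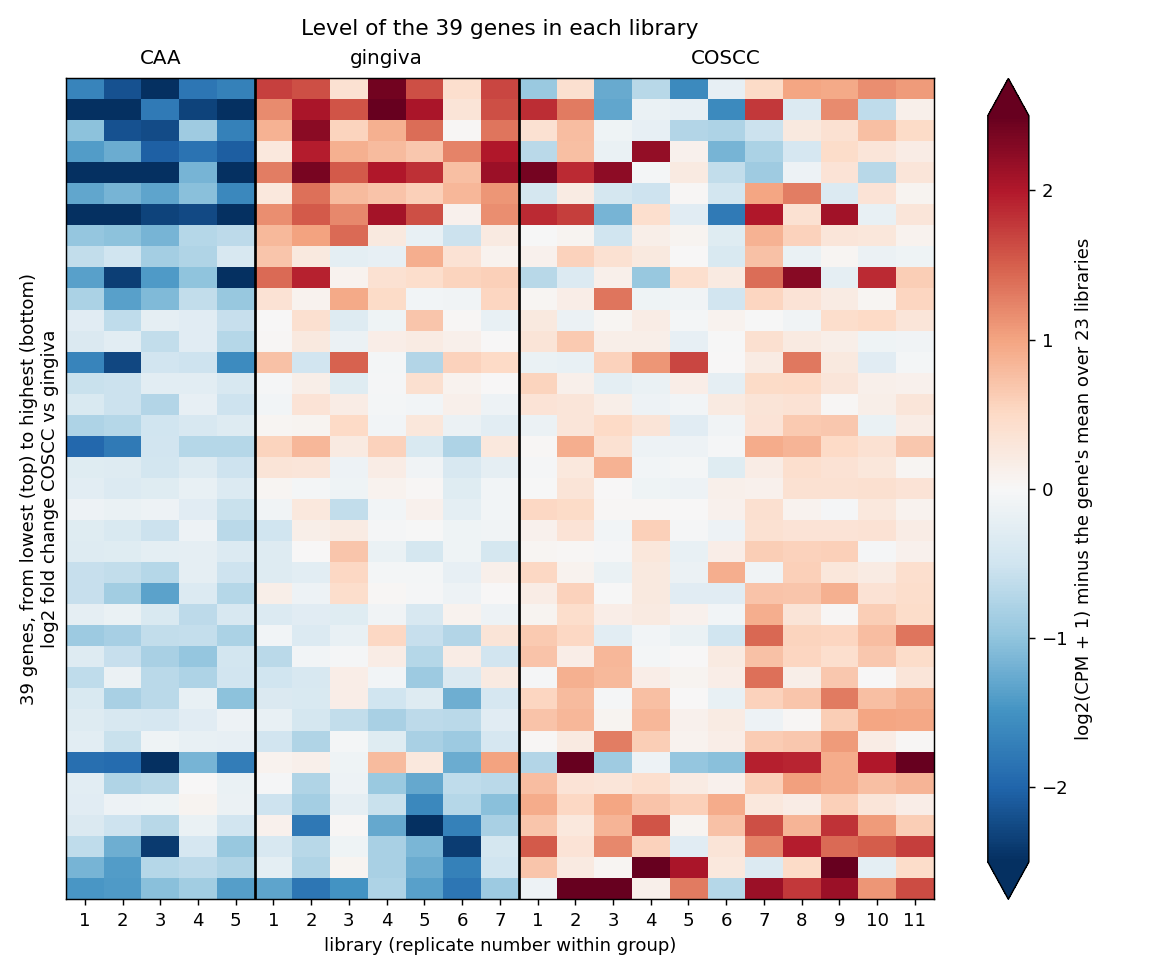
Each row is one of the 39 genes and each column a library, grouped as 5 CAA, 7 gingiva and 11 COSCC; the color gives log2(CPM + 1) minus the mean of the gene over all 23 libraries, with rows ordered by the log2 fold change of COSCC against gingiva. The CAA columns are below the COSCC columns in every row, by the rule, whereas gingiva is high in the top rows and low in the bottom rows.

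The widest margins belonged to ENSCAFG00000010058 and ENSCAFG00000047610. ENSCAFG00000010058 stood at 1.48, 2.20, 4.75, 5.02 and 2.68 CPM in CAA replicates 1 to 5. In COSCC its lowest, median and highest values were 7.40, 36.5 and 122 CPM, and in gingiva 30.1, 65.2 and 119.8 CPM. Its carcinoma values thus spread widely and overlapped those of gingiva, while the ameloblastomas were below both groups, with a coefficient of variation of 48.9%. Its lowest COSCC value was 1.48 times its highest CAA value.

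ENSCAFG00000047610 was at 13.7, 15.2, 13.6, 16.6 and 10.8 CPM in CAA replicates 1 to 5. Its COSCC values ran from 24.4 to 86.3 CPM with a median of 36.2, and its gingiva values from 42.5 to 93.3 CPM with a median of 61.5. The medians of both tumors were below that of gingiva for this gene. COSCC overlapped gingiva, while CAA did not overlap with either of the other groups. The ratio of lowest COSCC to highest CAA was 1.47.

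At the edges of the rule the genes inside and outside hardly differed. The gene with the narrowest separation inside reached 30.5 CPM in its highest CAA library and 30.7 CPM in its lowest COSCC library. The nearest gene outside reached 13.03 CPM in CAA and had 9 of 11 COSCC libraries above that level, its lowest being 12.9 CPM. At the CPM minimum, the gene just inside had a COSCC mean of 10.2 CPM and the nearest one outside a mean of 8.48 CPM.

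The median level of the 39 genes in a library gives their joint position. On the log2(CPM + 1) scale it was 3.76 to 4.21 in CAA, 4.65 to 5.06 in gingiva and 4.72 to 5.69 in COSCC. Gingiva and COSCC overlapped, since COSCC replicates 6 and 5 (4.72 and 4.97) fell within the gingiva range. COSCC replicate 7 had the highest value of all. Over the 9879 genes with a mean of at least 10 CPM in COSCC the same median was 5.23 to 5.28 in CAA, 5.25 to 5.32 in gingiva and 5.20 to 5.36 in COSCC, a far narrower range.

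**Figure D2:**
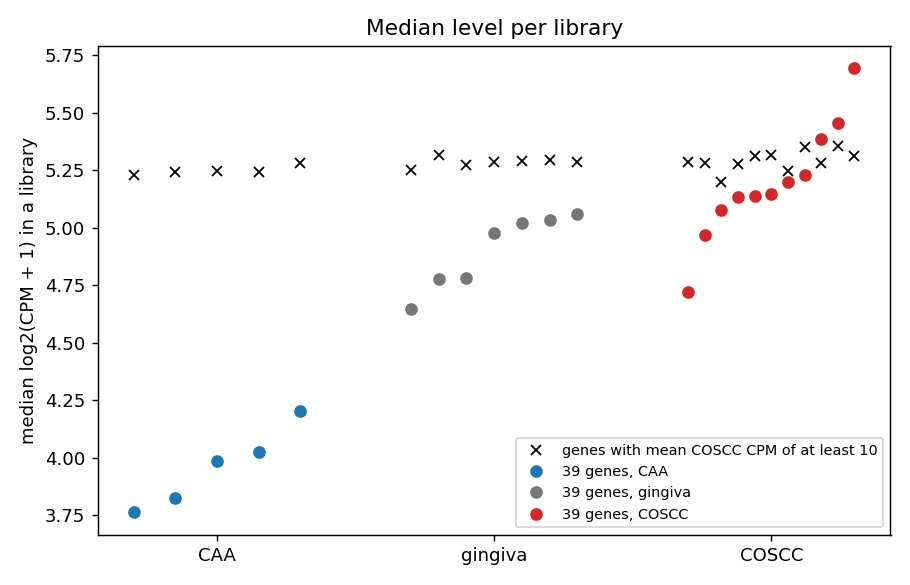
Each filled circle is the median of log2(CPM + 1) over the 39 genes in a library, and each cross the median over all 9879 genes with a mean of at least 10 CPM in COSCC, for 5 CAA, 7 gingiva and 11 COSCC libraries sorted within their group. The crosses lie between 5.20 and 5.36 in all groups, whereas the circles of CAA lie at 3.76 to 4.21.

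Gingiva had no fixed place between the tumors. Its mean CPM lay between those of CAA and COSCC for 22 of the 39 genes, above both for 11 and below both for 6. The next comparisons set each tumor against the same 7 gingiva libraries. They share these controls, and the tumor libraries in them are those by which the genes were chosen, so counts that follow the rule's direction are not independent of it.

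CAA was compared with gingiva to show which of the genes were lower than in healthy tissue. With edgeR, 21 of the 39 had an adjusted p under 0.05 and were lower in CAA, where 10.8% of all genes tested were, and 1 was higher, where 13.8% were. Their log2 fold changes ran from -4.94 to -0.49 with a median of -1.46, and 13 were at least 2-fold lower. Every CAA library lay below every gingiva library for 15 of the 39, against 6.59% of all genes. Over all 39 the median log2 fold change was -0.52, with 33 genes below 0, beside a median of 0.04 over all genes tested.

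ENSCAFG00000013078 and ENSCAFG00000010068 fell most. ENSCAFG00000013078 was at 0.602, 0.665, 2.32, 12.6 and 0.780 CPM in CAA replicates 1 to 5, and its lowest, median and highest gingiva values were 50.1, 106 and 156 CPM. CAA replicate 4 stood well above the other CAA libraries but far below any gingiva library. The log2 fold change was -4.94 ± 0.87 (SE, edgeR adjusted p = 0.000596), and -6.57 without CAA replicate 4. In COSCC the gene ranged from 15.4 to 159 CPM around a median of 34.5, which overlapped gingiva, and no difference from gingiva was shown by edgeR (log2 fold change -0.86 ± 0.56, SE, adjusted p = 0.239), although limma voom called it lower (log2 fold change -1.64, adjusted p = 0.000592).

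ENSCAFG00000010068 stood at 1.91, 1.28, 4.91, 3.06 and 1.11 CPM in CAA replicates 1 to 5, and at 24.1, 60.2 and 113.6 CPM (lowest, median, highest) in gingiva. All CAA libraries were thus well below gingiva, and the fitted log2 difference was -4.76 with an SE of 0.70 (edgeR adjusted p = 0.000165). Its COSCC libraries overlapped gingiva, at 5.72 to 71.7 CPM with a median of 16.96 (log2 fold change -1.16 ± 0.45, SE, edgeR adjusted p = 0.0508). That value lay at the threshold, and the gene was called lower in COSCC by DESeq2 (adjusted p = 0.0295) and limma voom (adjusted p = 0.00111). With median-of-ratios size factors in place of TMM, edgeR also called it lower (adjusted p = 0.0469). With TMM, edgeR called it lower without COSCC replicate 1, 2, 7 or 9, CAA replicate 3 or gingiva replicate 6. ENSCAFG00000010058, which had the widest margin between the tumors, had a log2 fold change of -4.50 ± 0.68 in CAA against gingiva (SE, edgeR adjusted p = 0.000193) and of -0.40 ± 0.45 in COSCC against gingiva (SE, edgeR adjusted p = 0.507; limma voom -0.87, adjusted p = 0.0475).

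The 1 gene that was higher in CAA than in gingiva was ENSCAFG00000019861. It was at 10.9, 12.3, 12.6, 14.2 and 12.2 CPM in CAA replicates 1 to 5 and at 3.76, 7.94 and 11.4 CPM (lowest, median, highest) in gingiva. The highest gingiva library overlapped the lowest CAA library, and the log2 fold change was 0.68 ± 0.22 (SE, edgeR adjusted p = 0.0270). This call was weak. The adjusted p was 0.0502 without CAA replicate 3, 0.0564 without CAA replicate 4, 0.0541 without CAA replicate 5, 0.0522 without gingiva replicate 2 and 0.0544 without gingiva replicate 7. With maxillary tumors alone it was 0.126, and with mandibular tumors alone 0.211. In COSCC the gene was higher still, as the rule requires, at 15.3 to 27.7 CPM with no overlap with gingiva (log2 difference 1.43, SE 0.19, edgeR adjusted p = 3.39e-05).

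Of the 21 lower genes, 16 stayed past the threshold in each of 23 fits that left out 1 library. Scaling bore on the count: with library totals in place of TMM, 13 of the 39 and 5.31% of all genes were lower past the threshold, while the median fold change of all genes moved from 0.04 to 0.41. When the tumors were split by jaw, 17 were lower with maxillary tumors alone (9.36% of all genes). With mandibular tumors alone 8 were lower (1.29% of all genes), in a fit with 2 CAA libraries. The jaw of 6 of the 7 gingiva libraries is undetermined, so these fits are not matched for jaw.

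The carcinomas were set against the same gingiva libraries. Here 13 of the 39 genes were higher in COSCC at an edgeR adjusted p under 0.05, where 20.1% of all genes were, and 3 were lower, where 13.5% were. The 13 had log2 fold changes of 0.54 to 4.83 with a median of 1.13, and 9 were at least 2-fold higher. Every COSCC library lay above every gingiva library for 5 of the 39, against 1.15% of all genes. The median over the 39 was 0.23, beside 0.14 over all genes tested, so as a set they sat close to the general level. In each of 23 fits without 1 library, 12 of the 13 stayed past the threshold; with library totals in place of TMM the count was 20, and the share of all genes rose to 28.4%.

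**Figure D3:**
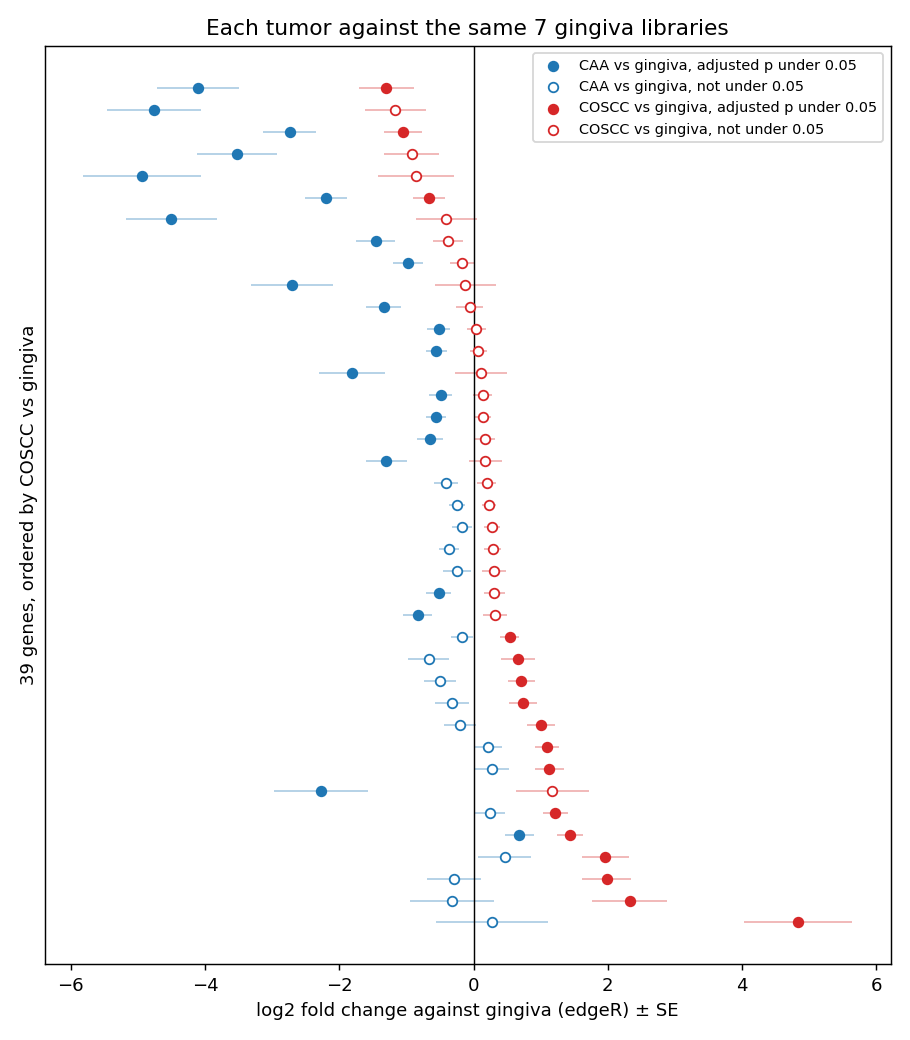
Log2 fold changes of the 39 genes against gingiva with their SE, in CAA (blue) and COSCC (red); filled circles have an edgeR adjusted p under 0.05. The upper genes have low CAA values (down to -4.94) with COSCC between -1.30 and values near 0, and the lower genes have high COSCC values (up to 4.83) with CAA mostly near 0.

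ENSCAFG00000013175 and ENSCAFG00000004615 rose most. ENSCAFG00000013175 was close to the limit of detection in gingiva, with 0 to 14 counts per library (0 to 1.03 CPM), and in CAA, with 5 to 14 counts (0.273, 0.307, 0.702, 0.912 and 0.334 CPM in replicates 1 to 5). In COSCC it had 1.12, 9.75 and 41.9 CPM as lowest, median and highest values. All COSCC libraries were above all gingiva libraries, and the fitted log2 difference was 4.83 with an SE of 0.80 (edgeR adjusted p = 0.000224). COSCC replicate 6, with 18 counts, came close to the gingiva library with 14. For CAA against gingiva no difference was shown (log2 fold change 0.28 ± 0.83, SE, edgeR adjusted p = 0.838).

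ENSCAFG00000004615 was at 3.34, 2.71, 4.97, 5.21 and 4.79 CPM in CAA replicates 1 to 5, at 2.03 to 9.19 CPM in gingiva (median 4.79) and at 6.68 to 102.9 CPM in COSCC (median 12.4). The high mean of COSCC came from 3 libraries, replicates 4, 9 and 5, at 102.9, 64.8 and 38.8 CPM, and the other COSCC libraries were at 14.8 CPM or below. COSCC and gingiva overlapped at their edges. The log2 fold change was 2.33 ± 0.56 (SE, edgeR adjusted p = 0.00382), and CAA against gingiva gave -0.32 ± 0.62 (SE, edgeR adjusted p = 0.740).

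The 3 genes that were lower in COSCC than in gingiva were ENSCAFG00000030565, ENSCAFG00000001077 and ENSCAFG00000047610. Each was lower still in CAA, as the rule requires. ENSCAFG00000030565 stood at 2.57, 1.48, 0.540, 2.21 and 2.51 CPM in CAA replicates 1 to 5, at 2.73, 13.9 and 24.2 CPM (lowest, median, highest) in COSCC and at 13.7, 33.5 and 59.2 CPM in gingiva. CAA was the lowest group, and COSCC overlapped gingiva at its upper end. Its log2 fold change was -1.30 ± 0.41 in COSCC (SE, edgeR adjusted p = 0.0203) and -4.10 ± 0.61 in CAA (SE, edgeR adjusted p = 0.000182). The COSCC call was lost without gingiva replicate 4 (adjusted p = 0.0609) and with maxillary tumors alone (adjusted p = 0.0790).

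ENSCAFG00000001077 was at 42.8, 18.7, 17.9, 46.8 and 26.8 CPM in CAA replicates 1 to 5. Its lowest, median and highest values were 51.0, 104.9 and 152 CPM in COSCC and 89.8, 164 and 424 CPM in gingiva. The groups were stepped, with overlap only between COSCC and gingiva. The log2 fold change was -1.05 ± 0.29 in COSCC (SE, edgeR adjusted p = 0.00872) and -2.74 ± 0.39 in CAA (SE, edgeR adjusted p = 0.000142). The COSCC call was lost with mandibular tumors alone (adjusted p = 0.0671). For ENSCAFG00000047610 these values were -0.67 ± 0.24 (SE, edgeR adjusted p = 0.0346) and -2.20 ± 0.32 (SE, edgeR adjusted p = 0.000142). The COSCC call of ENSCAFG00000047610 was weak. It was lost without COSCC replicate 1, 3, 4, 6 or 9 and without gingiva replicate 2, 6 or 7 (edgeR adjusted p from 0.0507 to 0.0891), with no low-count filter (0.0523) and with maxillary tumors alone (0.150).

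**Figure D4:**
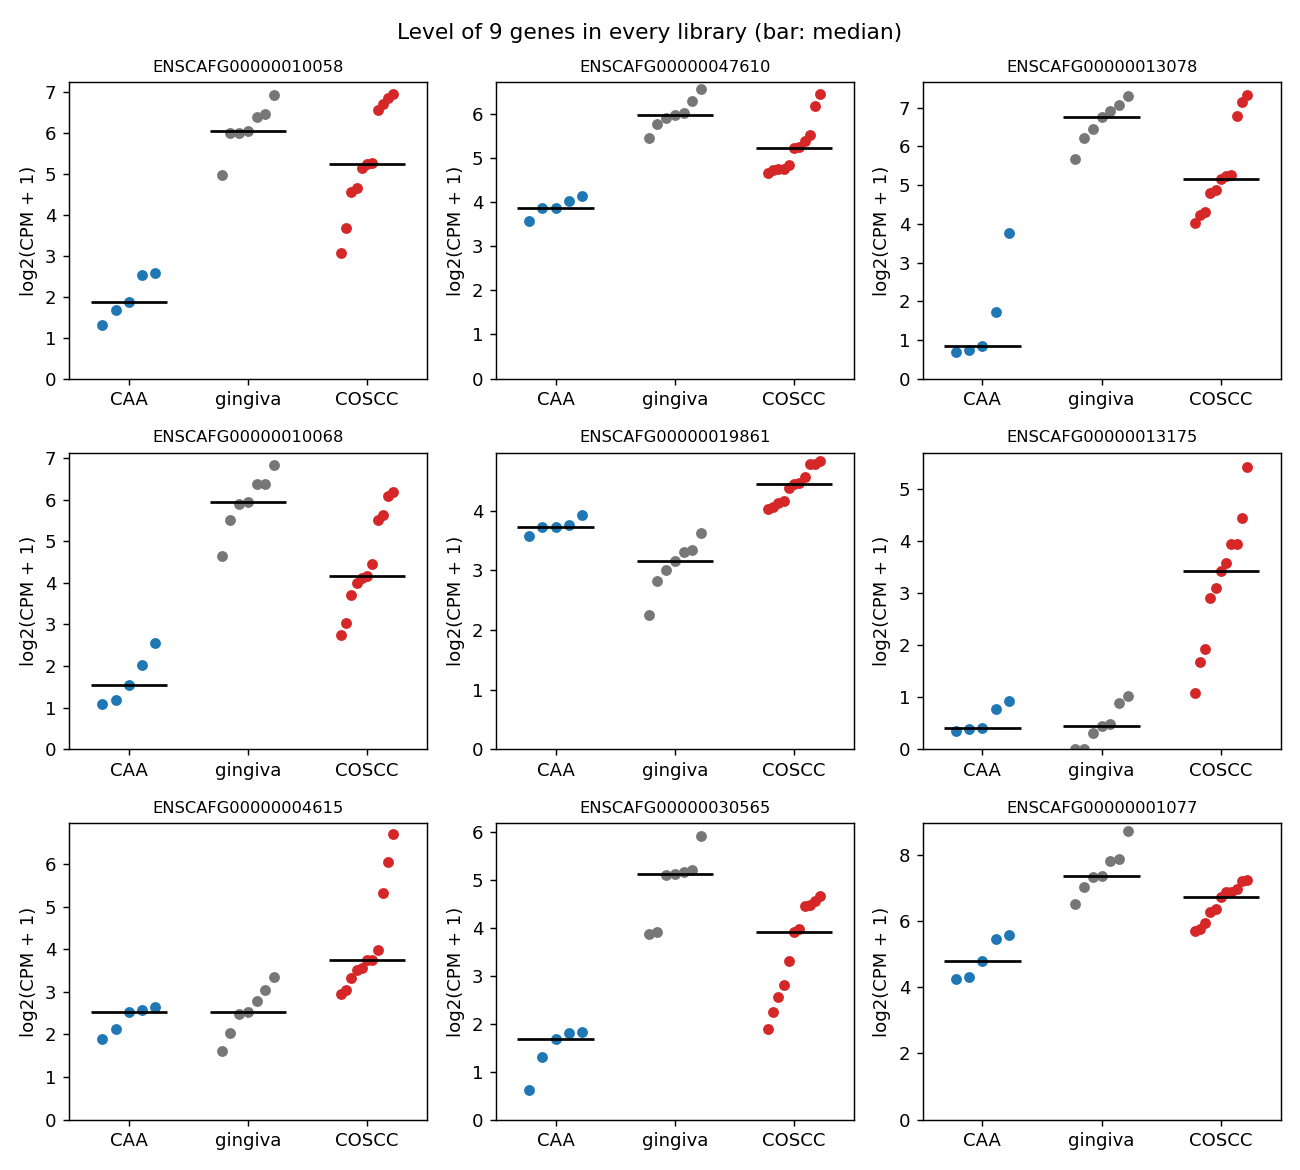
Level of the 9 named genes as log2(CPM + 1) in every CAA, gingiva and COSCC library; points are libraries sorted within their group and bars are medians. CAA is below COSCC in all 9, by the rule. By its median, gingiva is highest in ENSCAFG00000010058, ENSCAFG00000047610, ENSCAFG00000013078, ENSCAFG00000010068, ENSCAFG00000030565 and ENSCAFG00000001077.

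The genes were next compared with one another within a group, where the contrast between the tumors plays no part, although the rule kept genes whose COSCC libraries all stayed above CAA. Over the 11 COSCC libraries the Spearman correlation averaged 0.17 over 741 pairs of the 39 genes, with 534 pairs above 0 and a range of -0.81 to 0.91. Over all pairs of the 9879 genes with a mean of at least 10 CPM in COSCC it averaged 0.01. Over the 7 gingiva libraries the averages were 0.07 and 0.00. There 416 of the 741 pairs of the 39 genes were above 0, with a range of -0.93 to 1. Pairs above 0 were not counted for the 9879 genes. These correlations share libraries and scaling and are given as a description. Among the named genes, ENSCAFG00000010058 and ENSCAFG00000010068 followed each other most closely, with a Spearman correlation of 0.87 over COSCC and 0.89 over gingiva libraries. ENSCAFG00000019861 correlated negatively with 31 of the other 38 genes in COSCC and positively with 6, with a mean of -0.31. Its correlations ranged from -0.81, with ENSCAFG00000047610 and ENSCAFG00000030565, to 0.47, with ENSCAFG00000013078.

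The spread within a group differed from gene to gene. The coefficient of variation over the COSCC libraries was 11.7% to 117% with a median of 29.3%, against 35.2% for the 9879 genes, and over CAA the median was 15.5% against 23.6%. Both values come from libraries whose ranges the rule required to be separate. In gingiva, where the rule set no such limit, the median was 31.5% against 25.9%.

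The jaw of origin, which the rule did not use, was tested within the carcinomas, 4 mandibular against 7 maxillary libraries. With edgeR, 0 of the 39 genes had an adjusted p under 0.05, as did 0% of the 14958 genes tested, and the smallest adjusted p among the 39 was 0.324. DESeq2 and limma voom also called 0 of the 39, while they called 2.67% and 0.0201% of all genes. At an unadjusted p under 0.05, 5 of the 39 were lower in mandibular COSCC (6.81% of all genes) and 1 was higher (6.29% of all genes). The median log2 difference, mandible minus maxilla, was -0.19 over the 39 genes, with 27 below 0, and 0.01 over all genes tested. With library totals in place of TMM both medians moved up, to 0.03 over the 39 genes (17 below 0) and 0.25 over all genes. The sign of the median thus depended on the scaling, while it lay below that of all genes with either.

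The largest difference downward was in ENSCAFG00000030565, with means of 6.58 CPM in mandibular and 16.7 CPM in maxillary COSCC (log2 difference -1.35 ± 0.54, SE, edgeR unadjusted p = 0.0287, adjusted p = 0.341). The gene furthest in the other direction had means of 16.6 and 6.51 CPM (log2 difference 1.35 ± 0.52, SE, edgeR unadjusted p = 0.0226, adjusted p = 0.327). Neither passed the test after adjustment. Jaw and code nearly coincided, since all 4 mandibular COSCC carried MC and 6 of the 7 maxillary COSCC carried FS, so jaw and code cannot be told apart in the carcinomas.

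**Figure D5:**
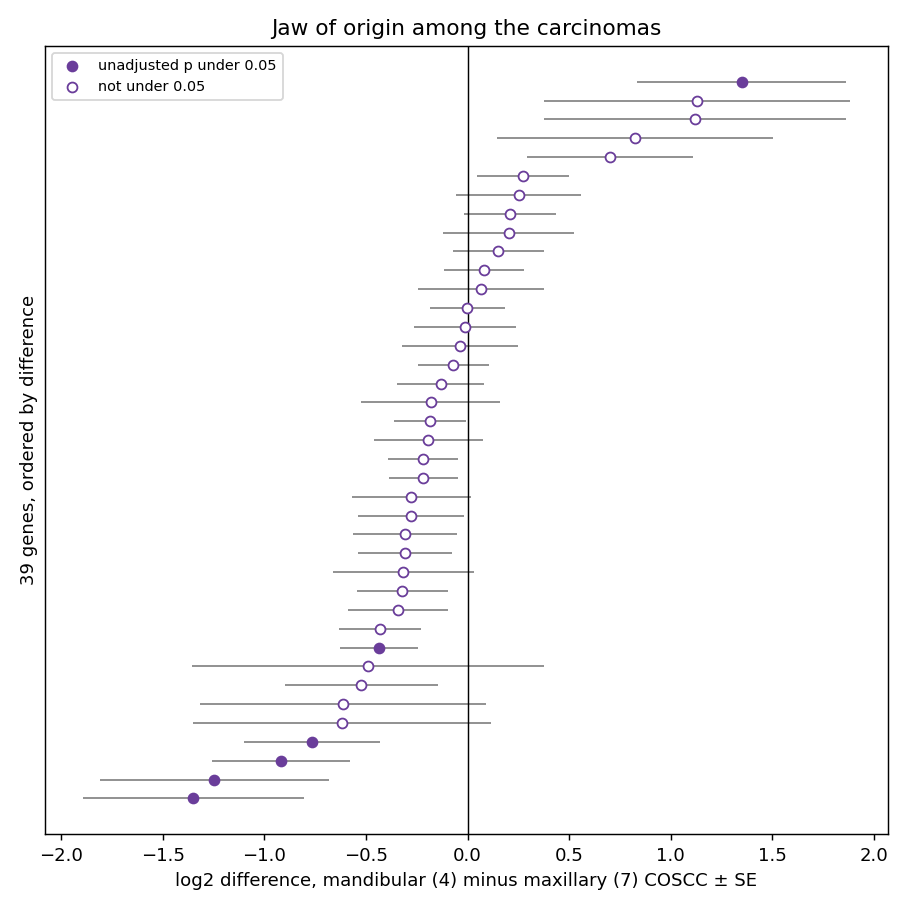
Log2 difference of mandibular (4) minus maxillary (7) COSCC libraries for the 39 genes with its SE, ordered by size; filled circles have an unadjusted p under 0.05. There are 5 filled circles left of 0 and 1 to the right, and no gene passes after adjustment.

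The test of the code used the 23 libraries and kept the group as a covariate. For MC against FS, 0 of the 39 genes had an edgeR adjusted p under 0.05, as did 0% of all genes, and the smallest adjusted p among the 39 was 0.816. DESeq2 and limma voom also called 0 of them. At an unadjusted p under 0.05 there were 2, against 5.06% of all genes. The log2 differences between the codes ranged from -0.35 to 0.84 with a median of -0.02, which was 0.11 with library totals in place of TMM.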

How the data were processed

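RNA was depleted of ribosomal RNA before directional library preparation, per the labels' protocols. The authors deposited raw counts per Ensembl dog gene; STAR and canFam3 are named in the submitters' processing notes, and the counting program, the use of strand and the annotation release are not given in the sources used here. Reads of near-identical or overlapping genes may be divided in ways that cannot be traced. All columns matched a sample by library name.

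Counts were filtered with filterByExpr by group (15716 genes, 99.87% of counts), scaled by TMM and fitted with edgeR 4.0.16 in R 4.3.3 (glmQLFit and glmQLFTest, all 23 libraries, a mean per group). P-values were adjusted by Benjamini-Hochberg over all genes tested. SE is the absolute log2 fold change over the square root of F. The jaw was tested within COSCC and the code with the group as covariate. The fit was also run on simulated counts with known decreases in CAA. The pass condition was the direction of the fold changes, and no recovery or error rate is given here. Genes named are the first 2 by margin and by fold change in each direction against gingiva; a condition on gene symbols could not be met, so the planned gene lists and cell type markers were not used. Alternatives were DESeq2 1.42.0, voom of limma 3.58.1 with quality weights, other scalings and filters, subsets of libraries, the code as covariate and a replicate block. The members, rules and lists were chosen with earlier results of these data known.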

Additional observations from a re-analysis of the deposited data

Results flagged for a closer look

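ENSCAFG00000013078 had 12.6 CPM in CAA replicate 4 and no more than 2.32 CPM in any other ameloblastoma, a gap beyond Dixon's 95% limit for 5 samples. It was the only such gap among 20 sets of values examined in CAA and gingiva (the 9 named genes and the median level of the 39 genes), where chance gives about 1. For 31.7% of the 9879 genes with a mean of at least 10 CPM in COSCC, and for 21 of the 39, the same library was the highest CAA library. Without it, the log2 fold change of this gene in CAA against gingiva was -6.57 (edgeR adjusted p = 9.05e-05), and the cause was not tested. Whether a gap passes Dixon's limit depends on the scale of the values, so the flag is only a description.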

How the results depend on the processing

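Of 297 recomputed fold changes of named genes, 285 remained called in the reported direction and 0 reversed. The 297 include the CAA against COSCC contrast of ENSCAFG00000010058 and ENSCAFG00000047610, whose direction the rule fixed. The other genes were named for the size of their fold changes past the threshold. The weak call of ENSCAFG00000047610 in COSCC against gingiva is not among the 297, so the tally does not cover all calls. With library totals in place of TMM, 13 genes were lower in CAA than gingiva (21 in the report; 5.31% of all genes, against 10.8%) and 20 were higher in COSCC than gingiva (13 in the report; 28.4% of all genes, against 20.1%), the median of all genes moving to 0.41 and 0.35; by that scaling the rule gave 32 genes, 17 of the 39 among them. With mandibular tumors only, chosen after seeing the data, 8 genes were lower in CAA than gingiva (1.29% of all genes) and 0 lower in CAA than COSCC by edgeR (0% of all genes; 24 of the 39 at an unadjusted p under 0.05; other tools were not run), in a fit with fewer libraries. Leaving out a library in turn gave 17 to 22 genes lower in CAA than gingiva (6.57% to 12.1% of all genes). It gave 12 to 14 higher in COSCC than gingiva (15% to 22.2%) and 23 to 39 lower in CAA than COSCC (0.489% to 7.9%). The lowest counts of the last comparison were 24 without CAA replicate 2 (0.557% of all genes) and 23 without CAA replicate 3 (0.489%). The number of genes meeting the rule was 38 to 205, where leaving out a gingiva library, added after seeing the data, gave 38 or 39. A replicate block, from numbers shared between groups, gave 18, 11 and 9 genes for these comparisons. The shares of all genes were 9.63%, 11.6% and 0.261%. Same-numbered libraries did not deviate together (r from -0.25 to 0.32 over 17 pairs, 6 above 0.1, 1 of 17 libraries closest to its own number), so the numbers were not taken as pairs. No paired analysis was possible for the jaw because its groups share no number. The counts of 0 by jaw and code did not change under the alternatives run. Depth limits ENSCAFG00000013175 most among the named genes, with at most 14 counts in CAA and gingiva libraries.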
